A study of Mus musculus with 6 samples.

Results

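The let-7 family was represented by 8 guide-strand assays, let-7a, let-7b, let-7c, let-7d, let-7e, let-7f, let-7g and let-7i, among 517 microRNA assays. They were selected by name, as let-7 followed by 1 of these letters and nothing more, so that the passenger strands stood apart. Earlier results of these data were known when they were chosen. MicroRNAs were read by TaqMan PCR in 6 aortas of male mice, labelled as 3 biological replicates of each genotype. The Dicer_KO group held 3 aortas of LysM-Cre/Dicerflox/flox/Apoe-/- mice and the Dicer_WT group 3 aortas of LysM-Cre/Dicerwt/wt/Apoe-/- littermates. Both groups thus carried the Cre transgene, which the lysozyme M locus drives in macrophages, monocytes and neutrophils, and both lacked Apoe, which makes mice prone to atherosclerosis. Both were given food with 21% crude fat for 12 weeks from an age of 6 to 8 weeks. Dicer, the nuclease that frees mature microRNAs from their hairpins, was therefore to be lost in myeloid cells only and to be kept in the other cells of the vessel wall. Dicer itself was not measured, and the arrays do not tell which cells lost it.

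The members of the let-7 family are among the most abundant microRNAs of differentiated tissues. They pair with target messengers through the seed at bases 2 to 8, and known targets include the Ras genes, Hmga2, Lin28 and, in endothelium, the TGF-beta receptor Tgfbr1. Lin28 proteins in turn bind let-7 precursors and block their processing, and Dicer then cuts the remaining precursors into a guide and a passenger strand. A tissue sample mixes all its cells, so fewer cells of a type and less of a microRNA per cell cannot be told apart here.

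The mature sequences are shown because the assays have to separate RNAs that differ by very few bases. All 8 were found in RefSeq (GRCm38), and capitals mark the seed, which was the same in all 8.
let-7a: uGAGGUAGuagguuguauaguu
let-7b: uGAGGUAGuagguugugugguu
let-7c: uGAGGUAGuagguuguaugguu
let-7d: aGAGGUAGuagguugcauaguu
let-7e: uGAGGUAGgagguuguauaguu
let-7f: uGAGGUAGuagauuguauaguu
let-7g: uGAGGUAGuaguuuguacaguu
let-7i: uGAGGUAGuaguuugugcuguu

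With positions counted from 1 at the 5' end and the base of let-7a written first, let-7c differed from let-7a by A19G, let-7e by U9G and let-7f by G12A. let-7b carried A17G and A19G, let-7d U1A and U16C, and let-7g G12U and U18C. let-7i was the farthest from let-7a, with G12U, A17G, U18C and A19U. Of the 28 pairs of members, 4 differed at 1 base and 8 at 2 bases. The most similar pairs were let-7a with let-7c, let-7e or let-7f, and let-7b with let-7c. How far each assay also read its nearest relatives was not tested in these files.

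The genes of the family lie in several clusters. Mirlet7d, Mirlet7f-1 and Mirlet7a-1 lie within a short stretch of chromosome 13 on the minus strand, with 1714 bases between the first and the second and 261 between the second and the third. Mirlet7c-2 and Mirlet7b lie 621 bases apart on chromosome 15 within the span of the noncoding gene Lncppara, and Mirlet7c-1 follows Mir99a by 656 bases on chromosome 16. Mirlet7e (chr17:17830352-17830444, plus strand) precedes Mir125a by 367 bases, both within the span of Spaca6. Mirlet7a-2 follows Mir100 on chromosome 9, Mirlet7f-2 precedes Mir98 on chromosome X within the span of Huwe1, and Mirlet7g lies within the span of Wdr82. Mature let-7a, let-7c and let-7f each come from more than 1 of these hairpins, so their assays sum over loci.

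All 8 members lay on the first of 2 array cards and were detected in all 6 aortas, with detection set at a threshold cycle (Ct) below 35. A lower Ct means more RNA, by about a factor of 2 per cycle. In Dicer_WT aortas let-7e had the lowest Ct of the family, at 17.5 ± 0.337 (SD, n = 3), which ranked 15 among the 517 assays. It was followed by let-7c at 17.8 ± 0.424, let-7b at 18.7 ± 0.333, let-7i at 18.9 ± 0.346, let-7d at 19.2 ± 0.171, let-7a at 19.6 ± 0.405 and let-7g at 19.8 ± 0.434. let-7f came last, at 21.0 ± 0.461 and rank 73. All members were therefore among the more abundant microRNAs of the aorta, over a span of 3.42 cycles. Each assay has its own efficiency, so this is an order of Ct values and only approximately one of RNA amounts.

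Neighbours in this order had overlapping Ct ranges in the Dicer_WT aortas except at 2 steps, from let-7c to let-7b and from let-7g to let-7f. Within single aortas the order was far steadier. let-7e, let-7c and let-7b took places 1, 2 and 3 and let-7f place 8 in each of the 6 aortas. let-7i and let-7d held places 4 and 5 in that order in 5 of 6 aortas and changed places in Dicer_KO replicate 1. let-7a stood before let-7g in the 3 Dicer_WT aortas and after it in the 3 Dicer_KO aortas.

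**Figure D1:**
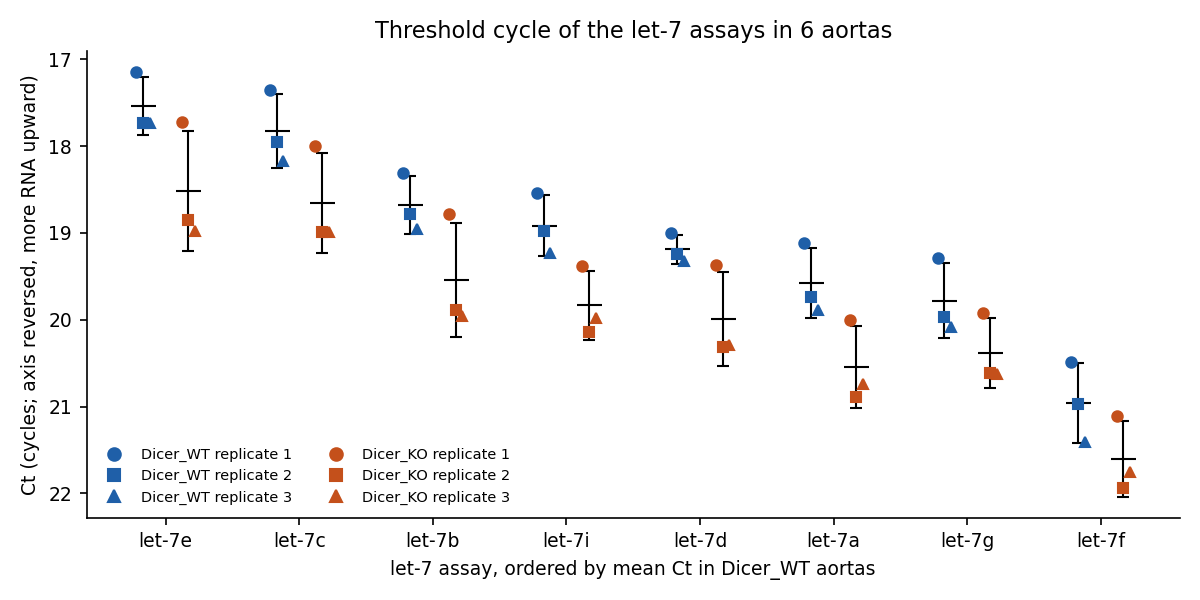
Threshold cycle (cycles, axis reversed so that more RNA lies higher) of the 8 let-7 assays, ordered by their mean in Dicer_WT aortas; each symbol is 1 aorta, and bars are mean and SD of 3 aortas. Dicer_KO replicates 2 and 3 lie below all Dicer_WT aortas for every member, whereas Dicer_KO replicate 1 lies within the Dicer_WT range for 5 members and just outside it for let-7a, let-7d and let-7i.

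On the authors' scale all 8 members had a lower mean in Dicer_KO than in Dicer_WT aortas, and 0 of 8 passed the threshold of 0.05 (limma, Benjamini-Hochberg over the 377 assays tested, adjusted p from 0.110 to 0.274). Over all assays tested, 7, or 1.86%, passed as lower and 0 as higher. At an unadjusted p under 0.05, 3 members (let-7a, let-7e and let-7i) were lower, against 24.4% of all assays. That count was 6 without Dicer_KO replicate 1, where 132 of 376 assays were lower at this p, beside 92 of 377 with all aortas. It was 0 without Dicer_WT replicate 1 (55 of 372 assays), Dicer_WT replicate 2 (55 of 373) or Dicer_KO replicate 2 (70 of 374). It was 2 without Dicer_WT replicate 3 (105 of 374 assays) and 1 without Dicer_KO replicate 3 (62 of 375). The share over all assays thus moved with the aorta left out as well. The median log2 fold change of the family was -0.62, beside -0.42 over all assays tested, of which 78.2% lay below 0. In 4 members (let-7a, let-7d, let-7e and let-7i) every Dicer_KO aorta lay below every Dicer_WT aorta, and the same was true of 32.6% of all assays. The opposite, every Dicer_KO aorta above every Dicer_WT aorta, held for 0 members and for 2.39% of all assays. The members' counts thus stand in a distribution that was itself displaced below 0.

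The family differed strongly among the Dicer_KO aortas. The median of its 8 members stood at 91.8% of the Dicer_WT mean in Dicer_KO replicate 1, at 55.5% in replicate 2 and at 55.8% in replicate 3. The Dicer_WT aortas stood at 116%, 97.7% and 88.1%, so that Dicer_KO replicate 1 lay inside their range and the other two below it. As deviations on the log2 scale the group means were 0.0005 ± 0.202 and -0.60 ± 0.416 (SD, n = 3 each). Over all assays tested the median deviations of Dicer_KO replicates 1, 2 and 3 were -0.21, -0.40 and -0.62. The family was thus 0.087 above the median of all assays in replicate 1, and in replicates 2 and 3 the differences from it were -0.45 and -0.22. Without Dicer_KO replicate 1, 5 of 8 members were called lower (let-7a, let-7b, let-7d, let-7e and let-7i, limma adjusted p from 0.0336 to 0.0494), where 14.6% of all assays were. The family median was then -0.84, beside -0.52 over all assays.

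Relative quantities, linear and with a geometric mean of 1 over the Dicer_WT aortas, show the same for single members. let-7e, the member with the lowest Ct, had 1.13, 0.928 and 0.950 in Dicer_WT replicates 1 to 3 and 0.907, 0.507 and 0.450 in Dicer_KO replicates 1 to 3. Its lowest Dicer_WT aorta was close to its highest Dicer_KO aorta, and the groups did not overlap. The log2 fold change was -0.76 ± 0.308 (SE, 95% interval -1.52 to -0.001, limma adjusted p = 0.186). It was -1.07 without Dicer_KO replicate 1 (adjusted p = 0.0336).

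let-7a, the member whose sequence is conserved from worms to mammals, had 1.19, 0.952 and 0.881 in Dicer_WT and 0.773, 0.508 and 0.548 in Dicer_KO aortas. The groups did not overlap, and Dicer_KO replicate 1 was again the highest of its group. The log2 fold change was -0.74 ± 0.240 (SE, 95% interval -1.33 to -0.15, limma adjusted p = 0.133). let-7i had 1.12, 1.02 and 0.877 in Dicer_WT and 0.749, 0.540 and 0.584 in Dicer_KO aortas. Its groups did not overlap either, and with -0.69 ± 0.209 (SE, 95% interval -1.21 to -0.18) it had the smallest adjusted p of the family, 0.110 (limma).

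let-7d was the steadiest member among the Dicer_WT aortas, with 0.990, 1.02 and 0.991. In Dicer_KO aortas it had 0.914, 0.579 and 0.569, all below the Dicer_WT values. The log2 fold change was -0.58 ± 0.239 (SE, 95% interval -1.16 to 0.0092, limma adjusted p = 0.190).

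let-7b and let-7c had closely similar values. For let-7b these were 1.12, 0.987 and 0.903 in Dicer_WT and 0.961, 0.548 and 0.503 in Dicer_KO aortas. For let-7c they were 1.20, 0.967 and 0.859 in Dicer_WT and 0.921, 0.563 and 0.544 in Dicer_KO aortas. In both, Dicer_KO replicate 1 lay above the lowest Dicer_WT aorta, so the groups overlapped. Their log2 fold changes were -0.64 ± 0.294 (95% interval -1.36 to 0.085) and -0.61 ± 0.278 (95% interval -1.29 to 0.075), with limma adjusted p = 0.225 and 0.223.

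let-7f and let-7g had the values nearest to 0. let-7f had 1.20, 1.05 and 0.797 in Dicer_WT and 0.934, 0.641 and 0.699 in Dicer_KO aortas, and let-7g had 1.22, 0.929 and 0.881 against 0.938, 0.707 and 0.682. Dicer_KO replicate 1 was higher than the lowest Dicer_WT aorta for let-7f and higher than the lowest pair for let-7g. The log2 fold changes were -0.42 ± 0.248 (95% interval -1.03 to 0.19) and -0.38 ± 0.227 (95% interval -0.94 to 0.18), both with limma adjusted p = 0.274. With U87 and Y1, small noncoding RNAs also on the cards, as the reference these 2 members turned above 0 (0.093 and 0.13), and let-7f also after quantile normalization (0.10).

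**Figure D2:**
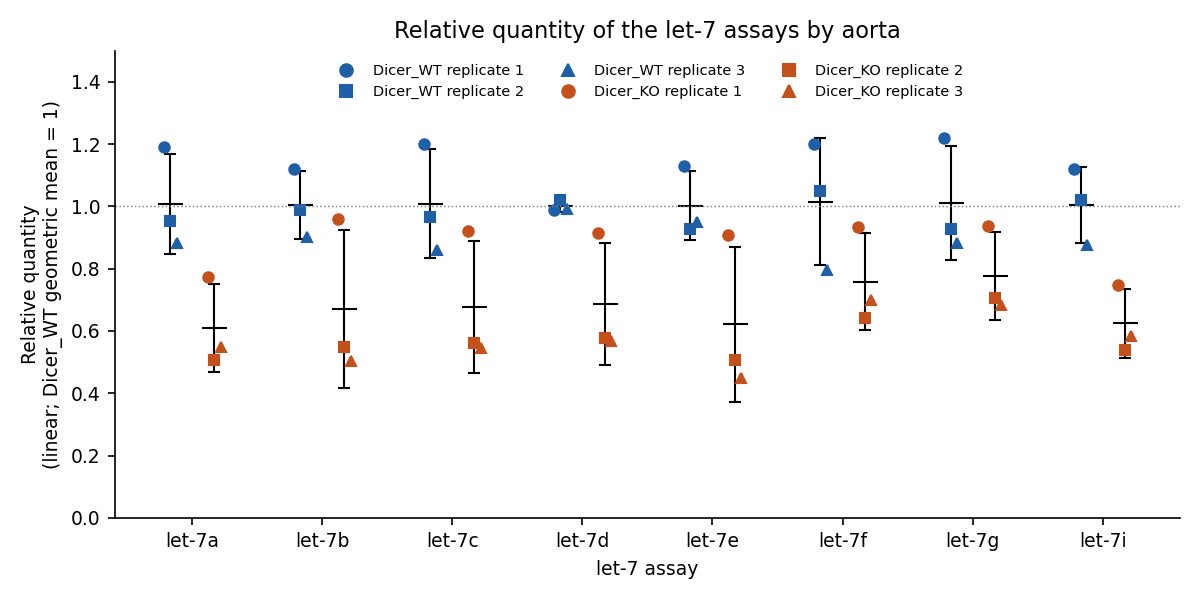
Relative quantity (linear, geometric mean of the Dicer_WT aortas 1) of each let-7 assay; symbols are single aortas, bars mean and SD of 3 aortas. In every member the circle of Dicer_KO replicate 1, from 0.749 for let-7i to 0.961 for let-7b, lies above the other Dicer_KO aortas, which range from 0.450 to 0.707.

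**Figure D3:**
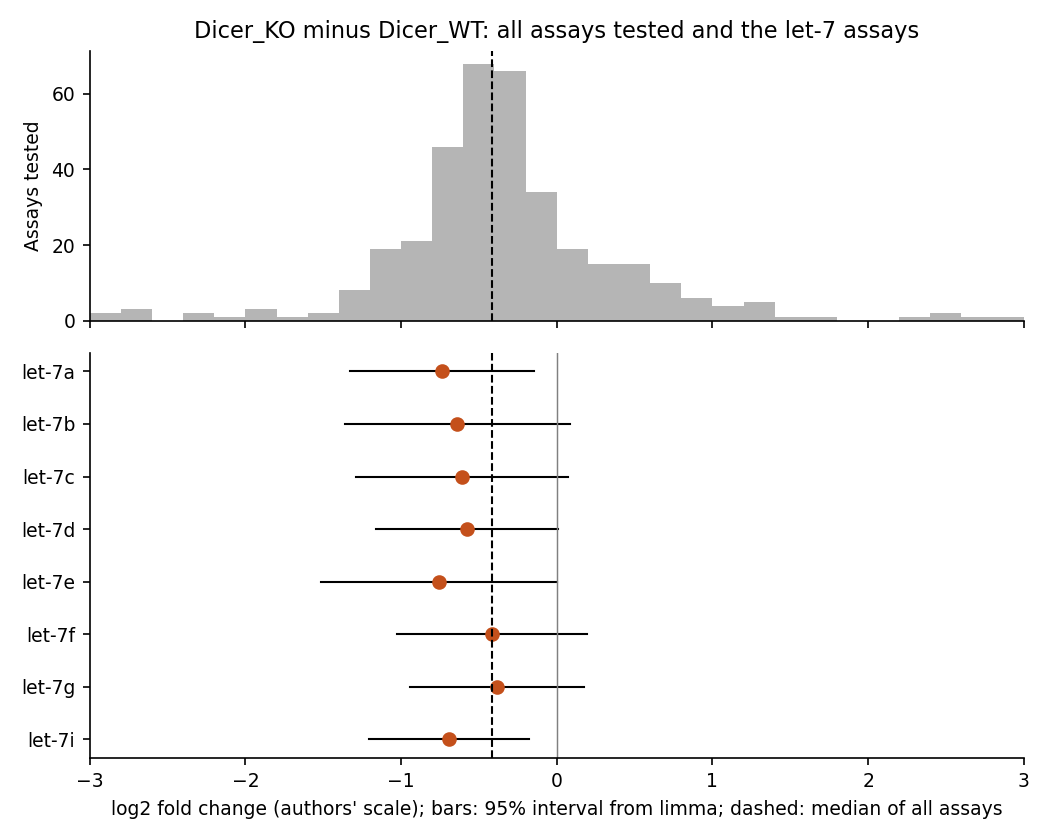
Histogram of the log2 fold changes (Dicer_KO minus Dicer_WT) of the assays tested, 20 of them outside the plotted range of -3 to 3, above the same value for each let-7 assay with its 95% interval. The dashed line is the median of all 377 assays at -0.42, which every interval of the family contains, and 7 of 8 members lie to its left.

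A table of fold changes deposited by the authors matched these relative quantities for most assays, but not for let-7b. For 515 of the 517 assays the deposited fold equalled the ratio of arithmetic means of the relative quantities within a relative tolerance of 1e-04, including let-7a at 0.604 and let-7e at 0.618. For let-7b the authors' deposited table gives 0.349, whereas the same ratio computed from the deposited relative quantities is 0.668. Only miR-195 differed too, with 0.133 in the authors' deposited table against 0.796. By its deposited fold let-7b would have the largest decrease of the family. By its relative quantities it came after let-7e, let-7a and let-7i.

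The size of the difference between genotypes depended on the reference RNA. Relative to U87 and Y1, which were themselves lower in Dicer_KO aortas on the first card by 0.47 and 0.55 on the authors' log2 scale, the family median was -0.11. There the median of all assays was 0.16. Without any normalization the family stood at -0.85 and all assays at -0.64, and with mean centring at -0.33 and -0.12. Over 20 alternative settings the family median lay below that of all assays tested in each, with differences from -0.41 to -0.0885. Many of these settings could hardly change the difference. Other reference RNAs and mean centring shift the members and the other assays of their card by the same amount. Variance moderation and the replicate block leave every log2 fold change as it was. No random or matched list was set against the difference, so it is a description of these 8 assays.

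Members of the same card and aorta can be compared without any reference RNA. Taken relative to the mean of the 8 members in the same aorta, the members moved little between genotypes, with differences from -0.16 for let-7e to 0.22 for let-7g on the log2 scale. let-7g was at -0.63, -0.80 and -0.74 in Dicer_WT and at -0.64, -0.41 and -0.46 in Dicer_KO aortas, and the groups overlapped. let-7a was at -0.47, -0.56 and -0.54 in Dicer_WT and at -0.72, -0.69 and -0.57 in Dicer_KO aortas. It was the only member without overlap between the groups (mean -0.52 ± 0.050 against -0.66 ± 0.077, SD, n = 3 each). On this scale 9.81% of all assays lay lower and 13.8% higher without overlap, beside 1 of 8 members. Each member is part of the mean it is set against, and all assays include those of the second card, which depend on the reference RNAs. These shares are therefore only a rough background. Leaving out 1 aorta changed this count to between 1 and 5 members, with 5 without Dicer_KO replicate 1, 3 without Dicer_WT replicate 1, and 2 each without Dicer_WT replicate 2 and Dicer_KO replicate 3. Groups of 2 against 3 aortas overlap less easily, and over all assays the share without overlap in either direction was 58.1%, 28.9%, 35.3% and 27.6% in these 4 settings, beside 23.6% with all 6 aortas.

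The pair let-7a and let-7g, singled out after its values were seen, had the difference behind the exchange of places. let-7a exceeded let-7g by 0.164, 0.236 and 0.202 cycles in Dicer_WT aortas and was below it by 0.079, 0.276 and 0.115 cycles in Dicer_KO aortas. Of 28 pairs of members, 4 had groups without overlap, each joining let-7a or let-7i to let-7f or let-7g. Among all 31125 pairs of tested assays of the same card the share was 31.2%. The let-7 members thus did not separate from each other more often than assays of this card in general.

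**Figure D4:**
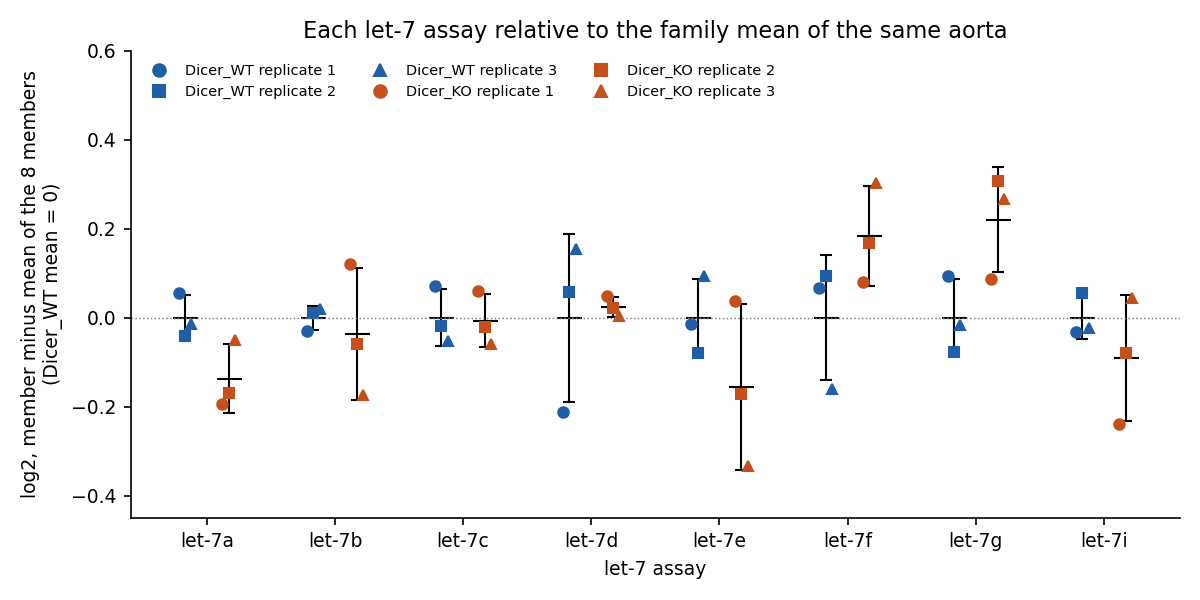
Level of each let-7 assay minus the mean of the 8 in the same aorta (log2), with the mean of the Dicer_WT aortas set to 0; symbols are aortas, bars mean and SD of 3. The largest departures are those of let-7e in Dicer_KO replicate 3 (-0.33) and of let-7g in Dicer_KO replicate 2 (0.31).

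Across the 6 aortas the members varied together. Pearson's r over the 28 pairs ran from 0.83 to 0.99, with a median of 0.94, as a description over 6 aortas that share their reference RNAs. The lowest was that of let-7d with let-7f, which come in part from 1 cluster. The highest was that of let-7b with let-7e, whose hairpins lie on different chromosomes. The other assays most like the mean of the family were miR-27b (r = 0.996), miR-361 (0.996), miR-27a (0.995), miR-143 (0.992) and miR-185 (0.991). Their log2 fold changes were -0.50, -0.49, -0.46, -0.76 and -0.86, none past the threshold. When each aorta was set against its own group's mean, miR-361, miR-27b, miR-143 and miR-27a were again among the 5 most alike, joined by miR-181a-1*. The median r over the 322 other assays detected in all aortas was 0.71, and 68 of them exceeded 0.9, so a high r was common on these arrays.

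miR-143 and miR-145 mark smooth muscle, the main cell type of the aortic wall, and had the lowest Ct of the markers examined (14.9 and 11.8 in Dicer_WT aortas). miR-143 had relative quantities of 1.15, 1.02 and 0.849 in Dicer_WT and 0.795, 0.519 and 0.501 in Dicer_KO aortas, nearly the values of let-7a. After quantile normalization miR-143 was at -0.059 and let-7a at -0.49 on the log2 scale. That method gives assays of the same rank the same value in each aorta, and miR-145 came out at 1.1e-15. It leaves the most abundant assays little room to differ, so it cannot tell whether miR-143 parts from let-7a. miR-145 had relative quantities of 1.04, 0.995 and 0.963 in Dicer_WT and 0.962, 0.687 and 0.637 in Dicer_KO aortas. Its log2 fold change was -0.42 (limma adjusted p = 0.231), beside a median of -0.42 over all assays tested. The summed level of both smooth muscle assays, relative to the reference RNAs, was 42.8 to 47.5 in Dicer_WT and 28.0 to 42.5 in Dicer_KO aortas. That of the 2 red blood cell assays, miR-451 and miR-486, was 0.0271 to 0.112 and 0.126 to 0.183. On the log2 scale miR-451 was at 1.36 without overlap and miR-486 at 1.12 with overlap between groups (limma adjusted p = 0.176 and 0.202). Without Dicer_WT replicate 3 they were at 0.80 and 0.68. The summed level of the 3 leukocyte assays, miR-142-3p, miR-142-5p and miR-223, was 0.227 to 0.369 in Dicer_WT and 0.131 to 0.208 in Dicer_KO aortas. Of these 3, miR-142-3p and miR-142-5p overlapped between groups, at -0.074 and -0.088 on the log2 scale (limma adjusted p = 0.802 and 0.755), whereas miR-223 was at -1.66 without overlap (adjusted p = 0.0641). For the 3 striated muscle assays it was 0.888 to 1.03 and 0.561 to 1.13. The part of these cell types in the let-7 values was not tested. All 13 marker assays were detected in all 6 aortas. The endothelial miR-126-3p was at -0.0051, the liver microRNA miR-122 at 1.36 and the lymphocyte microRNA miR-150 at 0.53 on the log2 scale. The value of miR-122 was 0.64 without Dicer_WT replicate 3, and that of miR-150 was 0.24 without Dicer_WT replicate 1. The labels name macrophage as the cell type and aorta as the tissue, and the smooth muscle assays were the most abundant of the markers.

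miR-223, a microRNA of neutrophils and macrophages, did not follow the let-7 family among the Dicer_KO aortas. Its relative quantities were 0.945, 1.39 and 0.761 in Dicer_WT and 0.279, 0.461 and 0.245 in Dicer_KO aortas. Dicer_KO replicate 1, in which the let-7 median was within the Dicer_WT range, was thus close to replicate 3 in miR-223, and below every Dicer_WT aorta.

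The passenger strands, the partners of the guides in the hairpins, were read on the second card by 7 assays. Of the 7, 6 had a log2 fold change below 0, beside 78.2% of all assays tested, and 0 passed the threshold (limma, over all assays tested). Their median was -0.61, beside -0.42 over all assays. Relative to U87 and Y1, 3 of 7 lay below 0 and the median was 0.028, beside 0.16 over all assays. There let-7a* (0.17), let-7g* (0.028) and let-7i* (0.056) turned above 0. After quantile normalization 4 of 7 lay below 0, with a median of -0.066, beside 0.0032 over all assays. let-7d*, RefSeq's let-7d-3p, is shown with bases 2 to 8 in capitals, since it had the smallest adjusted p of all let-7 assays.
let-7d*: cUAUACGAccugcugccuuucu

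let-7d* had relative quantities of 1.09, 0.988 and 0.927 in Dicer_WT and 0.585, 0.330 and 0.322 in Dicer_KO aortas, with a wide gap between the groups. The log2 fold change was -1.34 ± 0.282 (SE, 95% interval -2.03 to -0.64, limma adjusted p = 0.0641), beside -0.58 for let-7d. It passed the threshold in 4 of 20 alternatives, with limma adjusted p from 0.00772 to 0.243 over the 20. These were a Ct cutoff of 32, detection in all 6 aortas, the other variance moderation, and Dicer_KO replicate 1 left out. Of all assays, 24, 20, 28 and 55 were called lower there, beside 7 without these changes. let-7d* stayed below 0 in all 20, from -1.62 to -0.70. The Ct cutoffs, empty wells, filter, variance moderation and replicate block could not change its log2 fold change.

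Relative to its guide strand in the same aorta and with the Dicer_WT mean at 0, let-7d* was at 0.14, -0.045 and -0.096 in Dicer_WT and at -0.64, -0.81 and -0.82 in Dicer_KO aortas. Here Dicer_KO replicate 1 was close to the other two. let-7c-1* went the opposite way relative to let-7c, at -0.29, 0.29 and 0.0065 in Dicer_WT and 0.46, 1.12 and 0.71 in Dicer_KO aortas. Neither overlapped between groups, which held for 10.5% of 86 passenger strands on the low side and 8.14% on the high side. Its own log2 fold change was 0.15 ± 0.228 (95% interval -0.41 to 0.72, limma adjusted p = 0.614). These differences cross cards that were normalized with different reference RNAs, and let-7c-1* comes from 1 of the 2 let-7c hairpins.

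For the other passenger strands the difference from the guide overlapped between groups. let-7a* was at -0.47, let-7b* at -0.64, let-7g* at -0.61 and let-7i* at -0.58 on the log2 scale. let-7f* gave no product in Dicer_KO replicate 1 (Ct 40), although its Ct was 23.6 and 24.5 in the other Dicer_KO aortas and 22.5, 22.6 and 23.7 in Dicer_WT aortas. Its log2 fold change of -4.59 ± 3.09 (limma adjusted p = 0.321) rested on that well and was -0.87 with the well left missing.

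**Figure D5:**
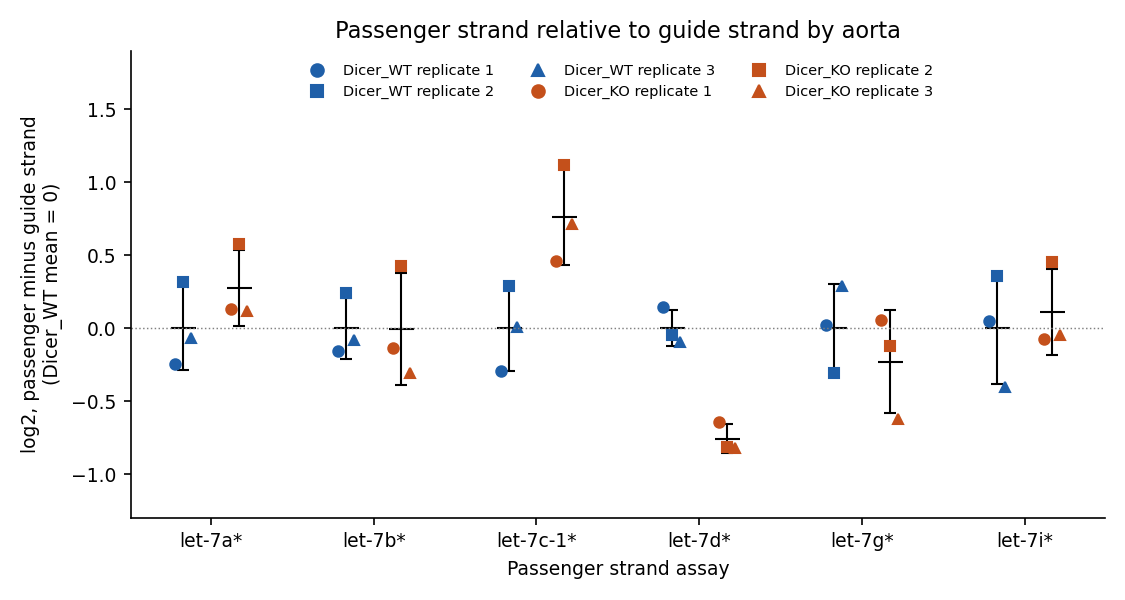
Passenger minus guide strand (log2, authors' scale, mean of the Dicer_WT aortas 0) for 6 let-7 hairpins, with let-7f* left out because of its empty well; symbols are aortas, bars mean and SD of 3. let-7d* lies at -0.64 to -0.82 in the Dicer_KO aortas and let-7c-1* at 0.46 to 1.12, whereas the other 4 overlap between the groups.

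Among 6 assays of microRNAs that share the seed or a cluster with let-7 genes, 3 gave no product in any aorta. These were miR-98, which carries the let-7 seed, and miR-99a and miR-100, cluster neighbours of let-7c and let-7a. Such wells at Ct 40 still appear in the authors' deposited table with a fold of 1.17 for miR-98, which reflects the reference RNAs alone. In all, 108 of 517 assays had no product in any aorta. The other 3 were tested and 0 passed. miR-99b, which is grouped with let-7e and miR-125a, had 1.20, 0.855 and 0.977 in Dicer_WT and 0.655, 0.605 and 0.510 in Dicer_KO aortas, without overlap. Its log2 fold change was -0.77 ± 0.209 (SE, limma adjusted p = 0.0996), beside -0.76 for let-7e. Their neighbour miR-125a-5p was at -0.18 ± 0.190 (95% interval -0.65 to 0.29, limma adjusted p = 0.499), and miR-125b-5p at -0.079 ± 0.175 (95% interval -0.51 to 0.35, adjusted p = 0.739). Both turned above 0 relative to U87 and Y1, with mean centring (0.11 and 0.21) and after quantile normalization (0.039 and 0.068). miR-125b-5p was also just above 0 relative to snoRNA135 and snoRNA202 (0.0033).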

How the data were processed

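Per the labels' protocols, total RNA was isolated with a mirVana kit, reverse-transcribed with a TaqMan microRNA kit and preamplified. The Ct software and threshold were not given in the sources used here. Ct values were deposited by the authors for each aorta, and a well without product stands at 40; 5 decimal commas were read as points. Their second deposited table holds relative quantities, a linear ratio. From the values, it equals the mean Ct of the reference RNAs of that aorta and card (3 on card 1, 4 on card 2) minus the assay's Ct, as a power of 2, divided by the geometric mean of the same quantity over the Dicer_WT aortas, within 5.22e-06 on the log2 scale. The deposited fold changes are linear ratios of Dicer_KO over Dicer_WT.

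Wells at or above Ct 35 were set to 35. The 377 assays below Ct 35 in 2 or 3 aortas of either genotype entered a moderated linear model (limma 3.58.1, R version 4.3.3, by lmFit then eBayes). Its p-values were two-sided and adjusted by Benjamini-Hochberg, with a threshold of 0.05. The script was first tested on simulated data. Alternatives changed the reference RNAs, normalization, Ct cutoff, empty wells, filter, variance moderation, replicate block and aortas. Members, lists and settings were chosen with earlier results of these data known. The assays named were the members, passenger strands, cluster partners, cell type markers and the 5 assays most like the family mean by each of 2 correlations. With 3 aortas per group the number of arrays limits the precision.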

Additional observations from a re-analysis of the deposited data

How the results depend on the processing

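Over 20 alternatives the family median stayed below 0, from -0.85 to -0.11, and it moved by more than the spread between aortas only relative to U87 and Y1 (-0.11). The count of members past the threshold stayed at 0 in 19 of them and was 5 without Dicer_KO replicate 1, so that leaving out 1 aorta gave 0 to 5. The count of members without overlap relative to the family mean was 1 to 5 when 1 aorta was left out, and the 5, without Dicer_KO replicate 1, stood beside 58.1% of all assays. The count of members at an unadjusted p under 0.05 was 0 with mean centring and 6 with the replicate block. Of all 377 assays, 56 and 120 were lower at that p in these settings, beside 92 without these changes. Of 160 values of single members, 3 changed sign: let-7f was 0.093 and let-7g 0.13 relative to U87 and Y1, and let-7f was 0.10 after quantile normalization. A further 5 passed the threshold, all without Dicer_KO replicate 1, and 152 kept direction and call. The changes of Ct cutoff, empty wells, filter, variance moderation and replicate block could alter only the p of a member. Its log2 fold change, and with it the family median, was fixed in those settings, so their unchanged direction adds nothing. The sample titles tie same-numbered aortas of the 2 groups by nothing but the number. Over 330 assays their deviations from the group means correlated at 0.18, -0.10 and 0.15. With 3 aortas a group this does not settle whether they are paired. With a replicate block 0 members were called and the family median was -0.62. The SE was then smaller for each member, such as 0.133 beside 0.240 for let-7a and 0.213 beside 0.239 for let-7d. The causes were not tested. The number of aortas, 3 a group, limits the precision, and the labels name no technical batch.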
